A study of Arabidopsis thaliana with 6 samples.

Results

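miR160 is a plant microRNA that pairs with the transcripts of the auxin response factors ARF10, ARF16 and ARF17. It was picked out here as the deposited entries whose predicted sites reached an expectation of 2 or less in at least 2 of these 3 genes. The expectation is the mismatch penalty of the target predictor psRNATarget, and a lower value stands for a closer match. Of 178 entries, miRNA-precursor_126 and miRNA-precursor_299 met the rule, and both carried the same mature sequence, the same counts and the same predicted sites. They were therefore counted once, as 1 of 142 distinct sequences. The rule used the sites alone and not the counts, but miR160 was taken up with earlier results of these counts known. No other sequence had a site at that expectation in any of the 3 genes, and the nearest was the MIR870 product in ARF16, at 3.5.

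A microRNA guides an Argonaute protein to matching transcripts, and in plants a near-perfect match usually leads to cutting of the transcript opposite the middle of the microRNA. ARF10, ARF16 and ARF17 belong to the branch of the auxin response factor family that mostly represses auxin-responsive genes, and miR160 holds their transcripts down in roots, leaves, flowers and embryos. In Arabidopsis, miR160 and ARF10 have also been linked to callus formation and to the regeneration of shoots from callus.

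The libraries came from Arabidopsis thaliana of 2 genotypes. Col-0 is the wild type and the control, and ein2-1 is a single mutant line in EIN2, the membrane protein that relays the ethylene signal, and is insensitive to ethylene. Seedlings of both genotypes were 14 days old when submerged for 1 hour, and leaf explants then spent 7 days on CIM, a callus-inducing medium. The upper portion of the explants was taken, with 3 biological replicates per genotype. No library without submergence or without CIM was compared, so neither treatment could be tested. In bulk tissue, fewer cells that make a microRNA and less of it per cell cannot be told apart.

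The mature sequence is shown first, with its seed, bases 2 to 8, in capitals, because the predicted sites are read by position along its whole length.
miR160: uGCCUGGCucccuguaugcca
The seed was shared by 0 of the 141 other distinct sequences, so miR160 was the only one of its seed family in the table. The 21-nt sequence matched the TAIR10.1 genome at 3 places, each in an annotated MIR160 gene. MIR160a (AT2G39175) lies on chromosome 2 at 16340279 to 16340363 (+), MIR160b (AT4G17788) on chromosome 4 at 9888982 to 9889070 (+), and MIR160c (AT5G46845) on chromosome 5 at 19009094 to 19009182 (−). Their hairpins, from the RefSeq annotation of TAIR10.1, are shown because reads of the mature part, in capitals, cannot be assigned to one of them.
MIR160a: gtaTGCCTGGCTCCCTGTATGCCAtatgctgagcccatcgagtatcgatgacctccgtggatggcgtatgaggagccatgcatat
MIR160b: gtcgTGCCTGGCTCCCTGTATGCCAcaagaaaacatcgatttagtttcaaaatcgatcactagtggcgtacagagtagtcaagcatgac
MIR160c: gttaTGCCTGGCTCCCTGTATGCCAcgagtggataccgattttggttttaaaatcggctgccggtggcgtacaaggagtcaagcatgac
The hairpins were 85, 89 and 89 nt long. The mature part began at base 4 in MIR160a and at base 5 in the other two, on the 5′ arm of each. None of the other deposited sequences analysed here matched these hairpins, so there was no value for the opposite strand.

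miR160 was more abundant in ein2-1 than in Col-0, by a log2 fold change of 3.05 under TMM scaling and 2.34 under scaling to library totals. The raw counts were 2185, 1387 and 1325 in Col-0 replicates 1 to 3. In ein2-1 replicates 1 to 3 they were 12547, 24023 and 18091. Every ein2-1 library lay above every Col-0 library. The total over all listed entries was 559411 to 1882664 per library, and was higher in each ein2-1 library than in each Col-0 library. These totals cover the listed microRNA entries and are not the sequencing depth. Over all distinct sequences together, replicates of 1 genotype differed by more than counting noise in 6 of 6 pairs.

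Scaled values narrowed the spread within each genotype. With TMM scaling, which sets libraries to a common scale through the bulk of the sequences, the levels were 1931, 1918 and 1760 CPM, counts scaled to a common total, in Col-0. In ein2-1 they were 12646, 16508 and 17170 CPM. The means were 1870 ± 95.4 and 15441 ± 2444 CPM (SD, n = 3), and the lowest ein2-1 library was 6.55 times as high as the highest Col-0 library. The coefficient of variation was 5.1% among Col-0 libraries, against 15.8% among ein2-1 libraries, with ein2-1 replicate 1 the lowest of its group. Counting error alone was 2.14% to 2.75% for the Col-0 counts, and for the ein2-1 counts 0.645% to 0.893%. The spread of the TMM-scaled values exceeded it in both genotypes. For shares of the distinct-sequence total the Col-0 coefficient of variation was only 3.42%, so an excess over counting error in Col-0 depends on the scale.

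As a share of all counts with each distinct sequence counted once, miR160 made up 0.393%, 0.417% and 0.393% of the Col-0 libraries. The share was 2.07%, 2.43% and 2.45% in ein2-1. The 95% Wilson intervals ran from 0.373% to 0.439% over the Col-0 libraries and from 2.03% to 2.48% over the ein2-1 libraries, and they cover counting error only. Col-0 had a mean share of 0.401% ± 0.0137, and ein2-1 one of 2.32% ± 0.214 (SD, n = 3). Among the 142 sequences miR160 ranked 17 by raw count in each Col-0 library and 8, 8 and 7 in ein2-1 replicates 1 to 3.

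**Figure D1:**
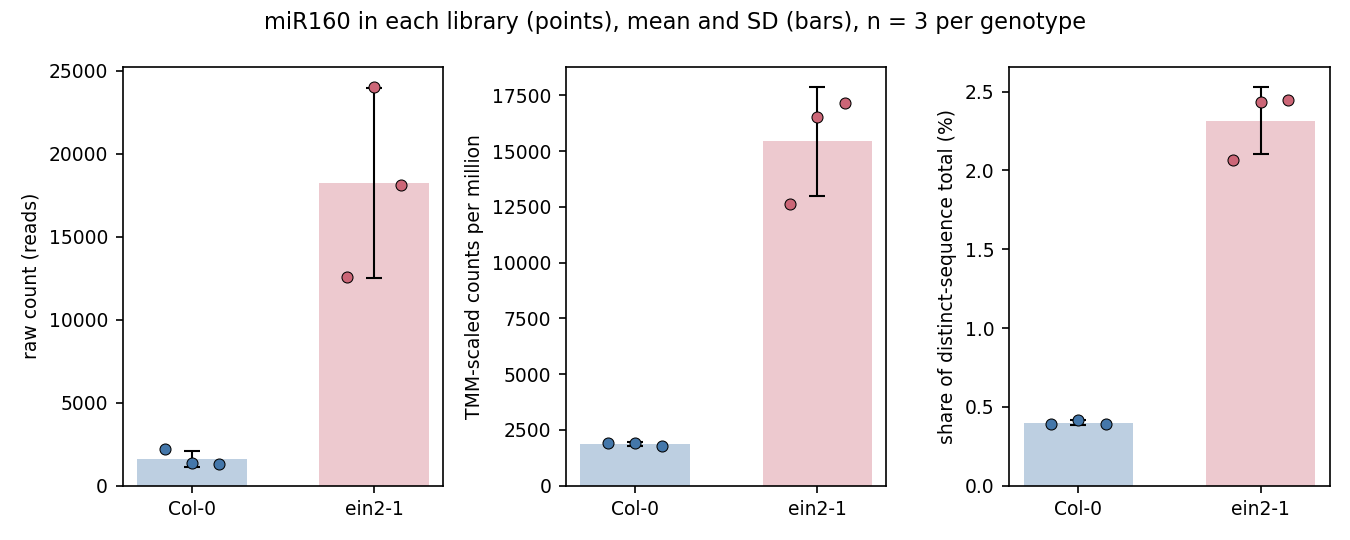
miR160 in 3 Col-0 and 3 ein2-1 libraries, as raw reads (left), TMM-scaled CPM (middle) and percent of the distinct-sequence total (right). Points are libraries, bars are means and whiskers are SD. All ein2-1 points lie above all Col-0 points on each scale, with scaled means of 15441 and 1870 CPM.

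On the log2 scale, miR160 was higher in ein2-1 by 3.05 (SE 0.17, adjusted p = 1.2e-08, edgeR quasi-likelihood test with Benjamini-Hochberg adjustment). This is 8.26-fold, with a 95% interval of 6.40 to 10.7. Entries that repeat a sequence were part of this fit. With 1 entry per distinct sequence the log2 fold change was 2.87 with a larger SE of 0.308, so the interval above is the narrower one. miR160 had the second-largest rise and the smallest adjusted p among 118 distinct sequences tested by edgeR. The first place by adjusted p did not hold in every alternative. In edgeR, miR167c-3p had a smaller adjusted p with 1 entry per distinct sequence (2.52e-11 against 1.74e-09). The same held in edgeR with a replicate block (7.35e-49 against 1.28e-42), and DESeq2 gave both 2.58e-71. Differences were common in this comparison, and 34.7% of the tested sequences were called higher and 32.2% lower in ein2-1, or 66.9% in either direction. Under library-size scaling 21 sequences were called higher and 59 lower, against 41 and 38 under TMM. For 35.6% of the 118 tested sequences every ein2-1 library lay above every Col-0 library under TMM, so the lack of overlap alone did not set miR160 apart. A rise of 4-fold or more was called for 9.32%. A rise of 8-fold or more was called for 2 sequences, or 1.69%, which were miR399b/c and miR160. This cut is a log2 fold change of 3, and miR393a/b lay just under it at 2.97. miR160 also fell below it under RLE size factors (2.92), DESeq2 (2.92), library-size scaling (2.34) and 1 entry per distinct sequence (2.87). The same held without ein2-1 replicate 2 (2.99) or replicate 3 (2.97). miR160 stayed above the cut in the other alternatives, so passing it depended on the processing. In the authors' deposited table, both miR160 entries have a log2 fold change of 3.19 and an FDR of 1.6e-94, the smallest FDR of its 178 entries. A permutation of 3 against 3 libraries cannot give an exact two-sided p under 0.1, so the call rests on the variance estimated by edgeR. The edgeR dispersion of each sequence, which is drawn toward the trend over all tested entries, gave miR160 a biological coefficient of variation of 0.154. This dispersion is not the quasi-likelihood variance behind the call. By this measure 18 sequences had a smaller coefficient.

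**Figure D2:**
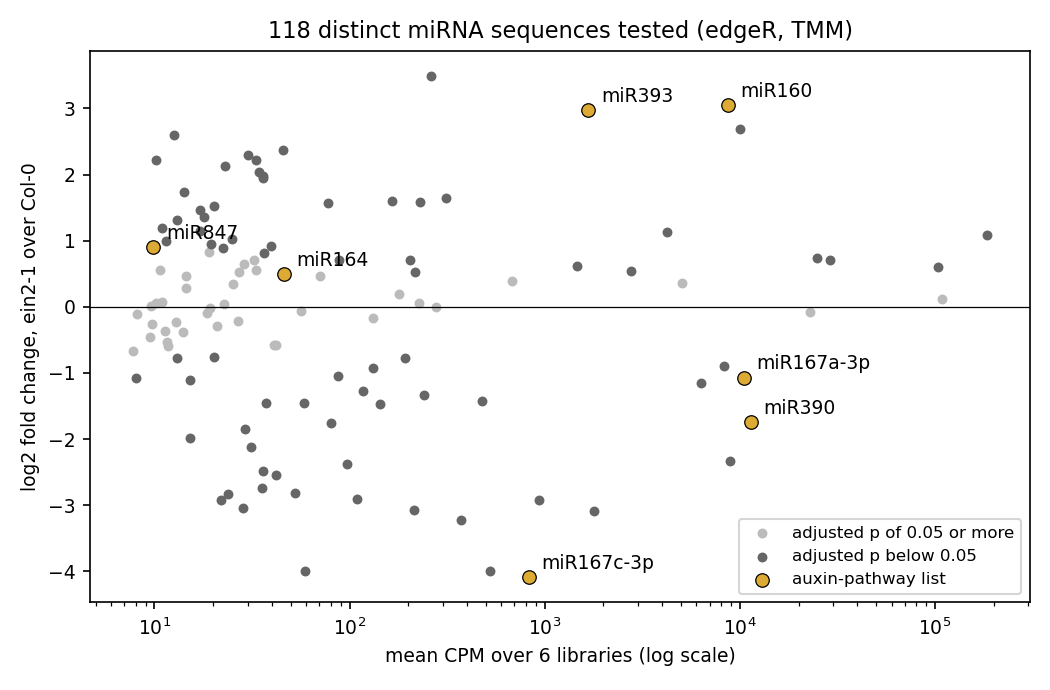
Log2 fold change, ein2-1 relative to Col-0 (y axis), against mean CPM over 6 libraries (x axis, log scale) for 118 distinct sequences. Dark points passed an adjusted p of 0.05 in edgeR, light points did not, and gold points are the auxin-pathway sequences, with miR160 at 3.05 and miR393 at 2.97.

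Ratios of raw counts within a library need no scaling. Taken over each of the 117 other tested sequences in turn, the ratio of miR160 to that sequence was higher in every ein2-1 than in every Col-0 library for 108 sequences. It overlapped between the genotypes for 8 and was lower in every ein2-1 library for 1, miR399b/c. The 8 were the miR393a/b, miR398b/c and miR172b/e sequences, products of MIR843 and MIR861, and 3 unannotated sequences. The same count, made for every tested sequence, had a median of 36, and miR399b/c was the only sequence with a count above that of miR160. The count of 108 was reached by 2 sequences, miR160 among them.

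The size of the difference moved with the scaling and its sign did not. The log2 fold change was 2.92 with RLE size factors, 2.34 with scaling to library totals and 3.26 with totals that leave out the most abundant microRNA. The median over all tested sequences moved too, from 0.06 under TMM to −0.64 under library totals. Relative to that median, the miR160 value was 2.99 under TMM and lay between 2.86 and 3.02 in 15 alternatives, in all of which it passed the threshold. A change of scaling shifts all sequences by nearly the same amount. The near-constant value across scalings therefore follows from taking off the median and is no separate check.

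**Figure D3:**
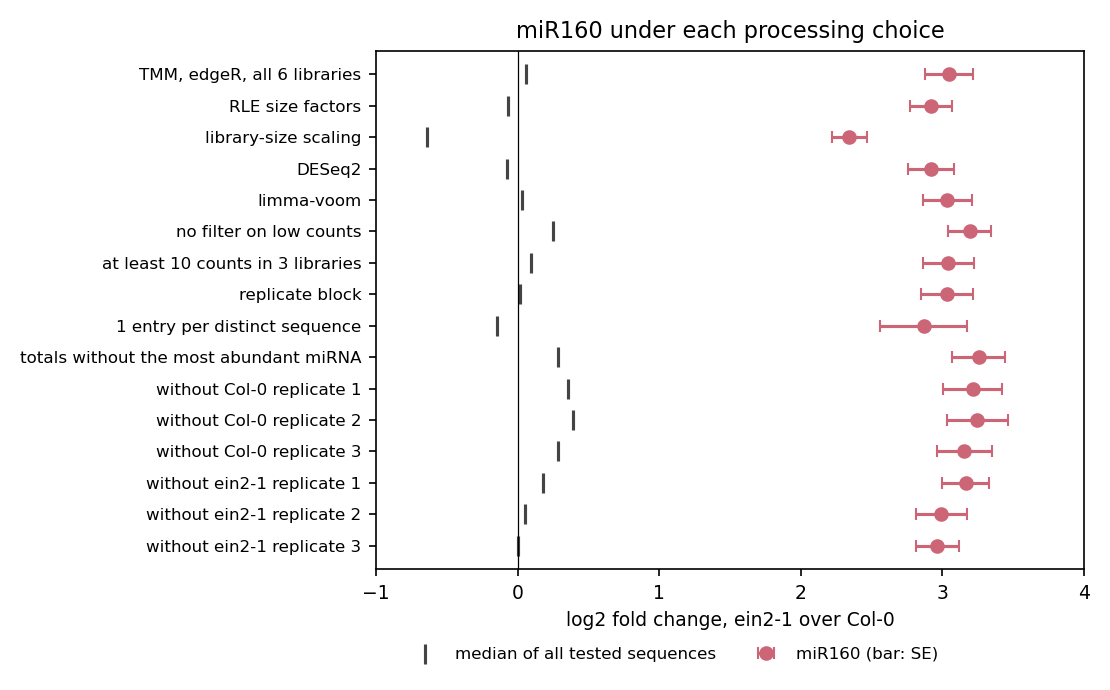
Log2 fold change of miR160 (points, whiskers are SE) and median of all tested sequences (ticks) under TMM and edgeR and under 15 alternatives. miR160 stays between 2.34 and 3.26, while the median ranges below and above 0.

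In each genotype miR160 was placed between its neighbours in mean level. In Col-0 it ranked 17 of 118, under miR408-3p, which acts on copper proteins, at 2267 ± 277 CPM, and above the MIR773a product at 1654 ± 120 CPM (SD, n = 3). All miR160 values in Col-0 lay below those of miR408-3p, whose lowest was 1967 CPM. They overlapped with those of the MIR773a product, whose highest was 1769 CPM. In ein2-1 it ranked 8, under miR398b/c at 17274 ± 6059 CPM and above miR167a-3p at 6738 ± 1207 CPM (SD, n = 3). Here it overlapped with miR398b/c, which acts on copper-zinc superoxide dismutases, and lay above all values of miR167a-3p.

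The sequences whose levels followed miR160 most closely were found by Pearson's r of log2 CPM over the 6 libraries. They were miR399b/c (r 0.998), which acts on the phosphate regulator PHO2, and miR166a to g (0.995), which act on class III homeodomain-leucine zipper genes. An unannotated 24-nt sequence (entry 190, r 0.987), miR393a/b (0.986) and another unannotated 24-nt sequence (entry 47, r 0.981) came next. Of the 117 other sequences, 25 had an r above 0.9. The 6 libraries share the step between the 2 genotypes, and sequences with steps of unlike size had nearly the same r. The log2 fold changes of these 5 were 3.49, 1.08, 2.23, 2.97 and 1.65.

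A list of auxin-pathway microRNAs held all tested products of the MIR160, MIR164, MIR167, MIR390, MIR393 and MIR847 genes. Of its 7 sequences, 3 were called higher (miR160, miR393a/b and the MIR847 product), 3 lower (miR390a/b, miR167c-3p and miR167a-3p) and 1 did not pass (miR164a/b). Over all tested sequences 34.7% were called higher and 32.2% lower, so the counts in the list were near the background in both directions. The median log2 fold change of the list was 0.49, against 0.06 over all 118 tested sequences.

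miR393 acts on the auxin receptors of the TIR1/AFB family and was the list member nearest to miR160. The Col-0 libraries had 468, 236 and 296 counts of miR393a/b, and the ein2-1 libraries 2172, 3601 and 4482, with no overlap. Its log2 fold change was 2.97 (SE 0.26, adjusted p = 3.2e-07, edgeR quasi-likelihood, Benjamini-Hochberg). For each miR393 count there were 4.48 to 5.88 miR160 counts in Col-0 libraries and 4.04 to 6.67 in ein2-1 libraries, so this ratio overlapped between the genotypes.

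miR390 sets off the production of the small RNAs from TAS3 that act on ARF2, ARF3 and ARF4. The Col-0 libraries had 17812, 13476 and 13730 counts of miR390a/b. The ein2-1 libraries had 5100, 5551 and 7167, fewer in each although their totals were larger. Its log2 fold change was −1.74 (SE 0.20, adjusted p = 4.9e-06, edgeR quasi-likelihood, Benjamini-Hochberg). Per miR390 count there were 0.0965 to 0.123 miR160 counts in Col-0 libraries, against 2.46 to 4.33 in ein2-1 libraries. miR390 was thus the more abundant of the pair in every Col-0 library and miR160 in every ein2-1 library.

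The remaining members came from genes whose products act on other steps. miR167c-3p and miR167a-3p are strands opposite to the miR167 that acts on ARF6 and ARF8, and they were lower by log2 fold changes of −4.09 and −1.07 (adjusted p = 4.8e-08 and 7e-05, edgeR quasi-likelihood, Benjamini-Hochberg). The miR160 count per miR167a-3p count was 0.118 to 0.148 in Col-0, against 2.04 to 2.69 in ein2-1. Per miR167c-3p count it was 1.13 to 1.25 in Col-0, against 129 to 297 in ein2-1. Neither ratio overlapped between the genotypes. miR164a/b, which acts on NAC genes including CUC1 and CUC2, had 38, 29 and 31 counts in Col-0 libraries, against 54, 71 and 61 in ein2-1 libraries. Its log2 fold change was 0.49 (SE 0.25, adjusted p = 0.0889, edgeR quasi-likelihood, Benjamini-Hochberg) and ranged from −0.20 to 0.72 over 15 alternatives, of which 4 called it higher. The MIR847 product, which acts on IAA28, had 9, 2 and 7 counts in Col-0 libraries, against 12, 16 and 17 in ein2-1 libraries. Its call (0.90, adjusted p = 0.0441, edgeR) held in 6 of 14 alternatives.

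The predicted sites of miR160 fell into a close class and a distant class. The close class holds the ARF genes that the rule used, so its presence was fixed by the selection. The target sheet listed 60 transcripts of 37 genes, and the best site of each gene was used. ARF17 had an expectation of 0.5, ARF10 of 1.0 and ARF16 of 1.5. No gene lay between 2 and 4, and then followed 4 genes at 4.0, 15 at 4.5 and 15 at 5.0, the limit of the sheet. Of 83 sequences with a gene at 2 or less, miR160 was the only one with none between 2 and 4. An empty stretch of 2.5 or wider occurred in 5 of the 83, with miR160 among them. Its list was also short, with 37 genes against a median of 67.5 per sequence and a range of 21 to 125, and 6 of the 142 sequences had fewer. A short list leaves fewer genes to fall between 2 and 4, and whether the empty stretch follows from that was not tested.

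**Figure D4:**
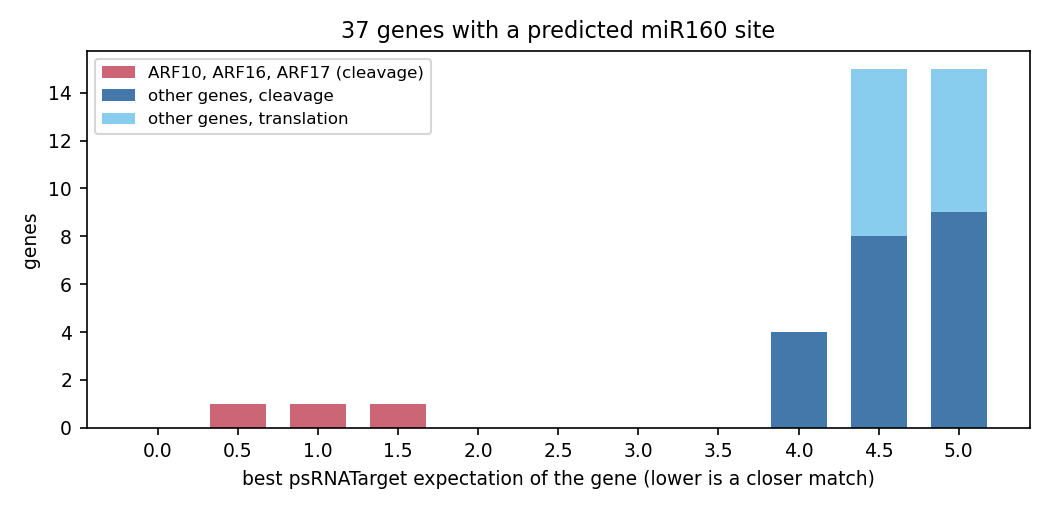
Number of genes (y axis) by the best psRNATarget expectation of a predicted miR160 site (x axis, lower is closer). ARF17, ARF10 and ARF16 stand at 0.5, 1.0 and 1.5, and the other 34 genes at 4.0 to 5.0, coloured by the predicted mode of inhibition.

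The 3 close sites carry the pairing that the rule rests on. They are given 5′ to 3′ as RNA, with bases in Watson-Crick pairs with miR160 in capitals.
ARF17: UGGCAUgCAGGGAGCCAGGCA
ARF10: aGGaAUACAGGGAGCCAGGCA
ARF16: gGGuuUACAGGGAGCCAGGCA
In the tokens that follow, the first letter is the miR160 base, the number its position from the 5′ end of miR160, and the last letter the base that the site would pair with. ARF17 had 20 pairs and 1 G:U wobble, at U15C. ARF10 had 19 pairs and mismatches at G18U and A21U. ARF16 had 18 pairs, a wobble at G18A and mismatches at U17A and A21C. All 3 sites paired without a break from position 1 through position 14 or beyond, with 14 paired positions in ARF17, 17 in ARF10 and 16 in ARF16 before the first difference. The seed and the bases around the expected cut were thus paired in each.

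The sites lie in coding sequence in all 3 genes. The ARF17 site (AT1G77850, chr1:29274189-29274209, + strand) is in exon 2 of 3 of transcript 1 and begins 74.9% of the way through the coding sequence. The ARF10 site (AT2G28350, chr2:12115741-12115761, + strand) is in exon 2 of 3 of transcript 2 and begins at 66.3%. The ARF16 site (AT4G30080, chr4:14704141-14704161, − strand) is in exon 3 of 4 and begins at 66.0%. The first base of each site is the third base of a codon, so the reading frame runs through the sites in the same phase. The bond opposite miR160 positions 10 and 11 lies between bases 29274199 and 29274200 in ARF17, between 12115751 and 12115752 in ARF10 and between 14704150 and 14704151 in ARF16. The letters of 59 of the 60 listed transcript sites equalled the TAIR10.1 genome at the deposited position. The pairing computed here equalled the deposited pairing string at 57 sites and differed at 3.

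The surroundings of the sites are shown with 20 nt on each side, as DNA of the coding strand with the site in capitals, because they show how far the likeness extends.
ARF17: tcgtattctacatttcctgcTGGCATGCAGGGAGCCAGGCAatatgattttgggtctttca
ARF10: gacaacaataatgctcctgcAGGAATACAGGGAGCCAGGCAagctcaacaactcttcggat
ARF16: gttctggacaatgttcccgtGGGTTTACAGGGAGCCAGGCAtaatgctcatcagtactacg
Of the 21 site bases, 17 were the same in all 3 genes, including an unbroken run of 14 at the 3′ end of the site. ARF10 shared 18 bases with ARF16 and 18 with ARF17, and ARF16 shared 17 with ARF17. Outside the site the likeness dropped. Of the 20 bases upstream, ARF10 shared 10 with ARF16 and 9 with ARF17, and ARF16 shared 6 with ARF17. Of the 20 downstream, the same pairs shared 6, 4 and 9.

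**Figure D5:**
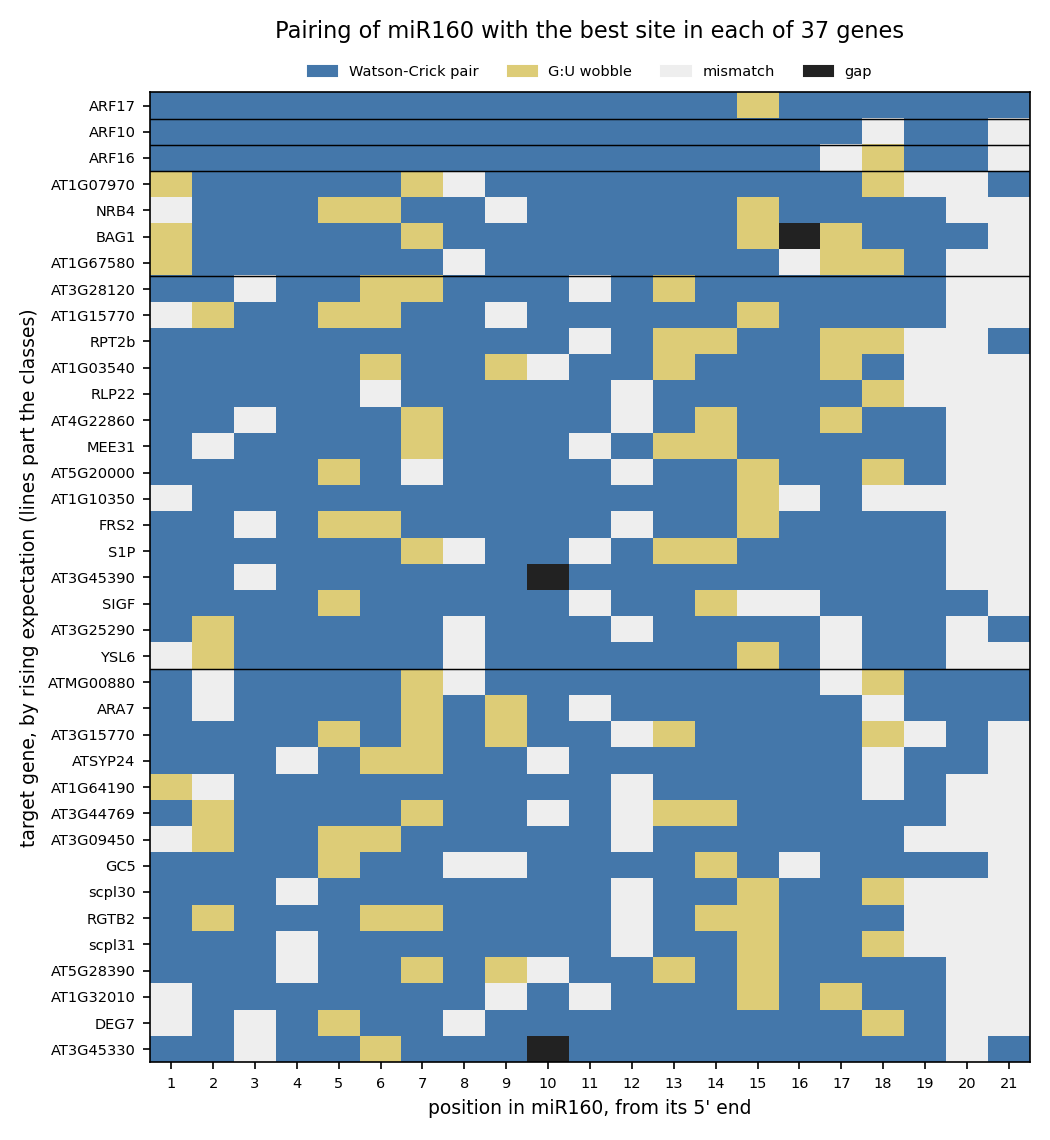
Pairing of miR160 (x axis, position from its 5′ end) with the best site of each of 37 genes (y axis, by rising expectation, with lines between the classes). Blue is a Watson-Crick pair, yellow a G:U wobble, pale grey a mismatch and black a gap. The ARF rows are blue at positions 1 to 14, and most other rows are pale at positions 20 and 21.

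The 34 other genes paired least at the end of the microRNA. Position 21 was paired in 17.6% and position 20 in 20.6% of them, against 1 of 3 and 3 of 3 ARF sites. Positions 4 and 16 were paired most often, in 88.2% and 85.3%, and position 1 in 67.6%. All these sites were listed by their expectation, so the percentages also depend on how the predictor weighs each position. They are not a property of the sites alone, and how much comes from that weighing was not tested. The predictor called 24 of the 37 genes cleavage targets, the 3 ARF genes among them, and 13 targets of translational inhibition. A mismatch or gap at position 10 or 11 was present in 13 of these 13 and in 0 of the 24, so the label followed the pairing there and is no measurement.

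The 4 genes at 4.0 are the nearest after the ARF genes, and their sites show what sets them off. The gene names are those of the reference annotation.
AT1G07970: UcuuAUACAGGGAcuCAGGCg
NRB4: gaGCAUgCAGGGuGCugGGCc
BAG1: cGGCggCAGGGAGuCAGGCg
AT1G67580: cuGuggACAGGGAaCCAGGCg
AT1G07970 encodes a cytochrome B561 protein, NRB4 (AT1G15780) a Mediator subunit 15a-like protein, BAG1 (AT5G52060) an athanogene-family co-chaperone and AT1G67580 a protein kinase. In each of them the site's last base, opposite miR160 position 1, was not in a Watson-Crick pair, and each had 3 or 4 wobbles. BAG1 also had a gap. AT3G25290, annotated as an auxin-responsive family protein, was at 4.5.

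Some of the distant sites lay in related genes, and these pairs were chosen after the list was seen. The neighbouring Mediator genes NRB4 and AT1G15770 shared 20 of 21 site bases. The serine carboxypeptidase-like genes scpl30 and scpl31, on different chromosomes, shared 21 of 21, and the lectin receptor kinase genes AT3G45390 and AT3G45330 shared 18 of 20. The AAA-type ATPase genes RPT2b and AT5G20000 shared 10 of 21, so their sites were not the same stretch. The sites of the first 3 pairs are therefore not independent of each other within a pair. Over the 37 genes, 33 sites lay in coding sequence, 1 in a 5′ UTR, 1 in a 3′ UTR and 1 across a boundary, and 1 mitochondrial site was not placed.

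The family of auxin response factors was searched for sites of every sequence. The 3 close miR160 sites are those that the rule used. Of 23 family genes, 3 had a miR160 site, 8 had a site of any sequence and 15 had none. Other sequences made 11 pairs with these 8 genes. The closest of the 11 were at 3.5, between ARF1 and the MIR400 product, ARF2 and the MIR866 product, ARF11 and a MIR156 product, and ARF16 and the MIR870 product. ARF4 had sites at 4.0 for the MIR843 and MIR447a/b products, and ARF11 had one at 4.0 for miR156. ARF3 had sites at 4.5 for the MIR169a product and at 5.0 for an unannotated sequence (entry 183). The miR160 targets ARF10 and ARF17 had weaker second sites, ARF10 at 4.5 for the MIR171a product and ARF17 at 5.0 for the MIR169i, j, k and m product. The abundance of the ARF transcripts was not analysed here, so these are predictions, and whether they changed with miR160 was not tested.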

How the data were processed

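Small RNA libraries of 6 samples were analysed, 3 of each genotype. The submitters' processing notes name cutadapt and the TAIR10 build. How reads were aligned and counted is not given in the sources used here. Raw counts are deposited per microRNA entry. The authors' own comparison gives log2 fold changes and p-values adjusted as FDR, per the file headers. For each predicted site the deposited sheet has a score, the psRNATarget expectation, and counts of sites refer to the pairs used here.

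The test was that of edgeR 4.0.16 under R 4.3.3 (quasi-likelihood, TMM, filterByExpr, two-sided, Benjamini-Hochberg adjusted p of 0.05), with genotype as the only term. The filter kept 118 distinct sequences. Entries of the same sequence were tested as deposited and counted once. The test was also run on simulated data in 20 runs. These had balanced changes, the same dispersion for every sequence and no repeated entries, unlike the real counts. They therefore do not check the calls made here. Sequences and sites were matched to the RefSeq TAIR10.1 genome. Site letters were compared with the genome at the deposited transcript positions. Tables used Python 3.11.15, pandas 2.3.3, scipy 1.17.1 and matplotlib 3.10.9.

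Named were miR160, every tested auxin-list sequence, the 5 sequences with the highest r to miR160 (log2 CPM with a prior count of 2), its neighbours in mean CPM, and the ARF genes with any site. Other target genes are named because all predicted sites are described. The members and lists were chosen with earlier results of these data known. The alternatives tried were DESeq2 1.42.0, limma-voom 3.58.1, scaling by RLE or library size, other filters on low counts, a replicate block, 1 entry per distinct sequence, totals without the most abundant microRNA, each library left out in turn, and stricter expectation limits. Intervals of shares cover counting error only, since without molecular identifiers reads are not independent molecules. The SE of an edgeR log2 fold change was computed from that change and its F statistic. The interval of the fold change was built from this SE.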

Additional observations from a re-analysis of the deposited data

How the results depend on the processing

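The miR160 call kept its direction and passed the threshold in all 15 alternatives, with log2 fold changes of 2.34 to 3.26. Leaving out each library in turn gave 2.97 to 3.25, and 36 to 49 distinct sequences higher and 34 to 37 lower. Library-size scaling moved the counts to 21 higher and 59 lower, and 1 entry per distinct sequence gave 25 higher. In the auxin list 2 to 4 sequences were called higher and 3 lower without 1 library. With every entry counted as deposited, the miR160 share was 0.238% in Col-0 and 1.21% in ein2-1, as abundant sequences carried by several entries then count repeatedly. An expectation limit of 4 left 7 genes with a miR160 site, and limits of 3 and of 2 left 3. Totals cover listed microRNAs only, so a shift of all of them together was not measured.

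The labels give no shared day or batch for a replicate number, and deviations of same-numbered libraries correlated at 0.207, −0.046 and 0.175, not above 0.1 in every pair, so the numbers were not taken as pairs. As a hint from the data, 4 of 6 libraries correlated best with their own number. A fit with the replicate block gave miR160 a log2 fold change of 3.03, with 42 sequences higher and 36 lower.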
